A study of Mus musculus with 2 samples.

Results

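The interferon-stimulated genes described here were 40 genes chosen by symbol, out of 32285 genes in each of 2 single-cell RNA libraries, and all 40 had a row in both. Interferons are secreted alarm signals. Type I interferons act through a receptor found on nearly every cell and switch on antiviral genes through a complex that holds STAT2 and IRF9 and binds a promoter element called the interferon-stimulated response element (ISRE). Interferon gamma comes mainly from T and NK cells, acts through a different receptor and a promoter element called the gamma-activated site (GAS), and is known for switching on antigen presentation and GTPases that attack microbes inside cells. The members were kept in 2 lists. The 32 type I members were the antiviral effectors (the Ifit, Oas and Oasl genes, Rsad2, Cmpk2, Isg15 with its partners Herc6 and Usp18, Bst2, Isg20, Ifi44, Ifi27l2a, Ifi35, Ly6e, Xaf1, Rtp4, Trim30a, Parp14, Slfn5 and Slfn8), the sensors of viral RNA Ddx58, Ifih1 and Dhx58, and the transcription factors Irf7, Stat2 and Irf9. The 8 interferon gamma-type members were the transcription factor Irf1, the immunity-related GTPases Igtp, Irgm1, Iigp1 and Ifi47, and the guanylate-binding proteins Gbp2, Gbp3 and Gbp7. Many of the 40 genes answer to both kinds of interferon, so the lists name the better known inducer and not the only one.

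The cells came from female BALB/c mice (BALB/cAnNCrl in the labels), bought at 7 to 8 weeks of age, that carried liver metastases of 4T1, a mammary carcinoma line of this strain with a luciferase reporter, seeded by injection into the spleen. All groups had the same tumor and the same hepatic arterial infusion. The infusion carried CBL0137 at 1 of 2 doses, called low and high, or its vehicle alone. CBL0137 is a curaxin that binds DNA and traps the histone chaperone FACT. Cells were collected 5 days after treatment, 2 mice were pooled in a group, and the groups were marked with the hashtag antibodies A0301 (vehicle), A0305 (low dose) and A0310 (high dose) and run together, in 1 library for each of the labels liver and spleen. The labels call the cells leukocytes from a density gradient, while the methods of the study describe cells taken with CD11b beads and name A0301 or 310 for the staining, with barcodes listed for A0301, A0305 and A0310. The amounts in the low and high doses were not stated for these cells.

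Unique molecular identifiers (UMIs) count captured transcripts. The median barcode had 4673 of them in the liver-labelled library (9591 barcodes) and 3368.5 in the spleen-labelled library (4830 barcodes). The barcodes with 1 hashtag numbered 3103 in the vehicle, 3194 in the low-dose and 2138 in the high-dose group of the liver-labelled library, and 822, 1301 and 865 in the spleen-labelled library. In the latter, 1627 barcodes had no hashtag call, and in 1532 of them the high-dose hashtag was the most abundant. The 2 libraries shared 15 cell barcodes. The tissue labels went against the cell markers. Clec4f, which marks the resident macrophages of the liver, had 0 UMIs in the assigned cells of the liver-labelled library, which allows at most 3, and 3520 UMIs in the spleen-labelled library. Endothelial-like, hepatocyte-like and tumor-like cells were named only in the spleen-labelled library. The names under which the matrices were deposited also carry the opposite tissue to the labels: the matrix of the liver-labelled library is named for spleen, and that of the spleen-labelled library for liver. The libraries are called here by their labels, and no tissue is drawn from them.

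Cells were named by clusters and fixed markers, with the 40 members kept out of the clustering, and UMIs were summed over all cells of a class in a hashtag group. A level is given as CPM, the UMIs of the gene divided by all gene UMIs of that class and group and scaled to 1000000, with a 95% exact Poisson interval. A difference is given as the log2 ratio of 2 levels, with an exact 95% binomial interval. Each hashtag group was 1 pooled sample in each library. No test between groups was possible, and the intervals cover counting error only, not the spread between mice. A member was counted in a comparison when it had at least 20 UMIs over both groups, and was past 2-fold when the log2 ratio reached 1.0 in either direction. A member that is low in 1 group can pass that minimum only through the group where it is high, so the counts of members past 2-fold are set beside the share of all counted genes that was past 2-fold in the same comparison. Both doses were compared with the same vehicle cells. Reads that match neighboring copies in the Gbp, Ifit, Oas and Slfn families may have been split or dropped in counting, so the values of single members of these families are uncertain.

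The promoters of the members were searched for both elements. RefSeq promoters (GRCm38.p6) were searched for 32 of the 40 members, and Iigp1 was among those left out. The 120 bases before the start are shown for 6 members that carry the results below, 5′ to 3′ on the strand of the gene. Capitals mark matches to the ISRE core GAAANNGAA or to the GAS core TTCNNNGAA on either strand. Neighboring ISRE matches can overlap. The promoter of Gbp7 lies at chr3:142530216-142530335 (plus strand), that of Gbp2 at chr3:142620543-142620662 (plus), that of Igtp at chr11:58199436-58199555 (plus), that of Irf1 at chr11:53769894-53770013 (plus, the first of 2 entries), that of Ifit1 at chr19:34640769-34640888 (plus) and that of Isg15 at chr4:156200819-156200938 (minus).
Gbp7: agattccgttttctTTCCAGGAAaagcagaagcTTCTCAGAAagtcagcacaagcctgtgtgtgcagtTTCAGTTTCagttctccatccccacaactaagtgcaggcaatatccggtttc
Gbp2: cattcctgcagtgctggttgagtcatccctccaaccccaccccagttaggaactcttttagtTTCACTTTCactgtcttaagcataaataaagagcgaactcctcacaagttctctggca
Igtp: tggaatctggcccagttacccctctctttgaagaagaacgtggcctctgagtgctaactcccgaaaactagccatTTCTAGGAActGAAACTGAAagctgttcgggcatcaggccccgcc
Irf1: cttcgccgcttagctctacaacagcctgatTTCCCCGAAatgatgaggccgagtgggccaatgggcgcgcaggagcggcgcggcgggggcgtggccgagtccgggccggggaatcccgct
Ifit1: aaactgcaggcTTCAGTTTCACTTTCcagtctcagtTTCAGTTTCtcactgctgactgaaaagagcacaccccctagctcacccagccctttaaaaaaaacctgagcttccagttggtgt
Isg15: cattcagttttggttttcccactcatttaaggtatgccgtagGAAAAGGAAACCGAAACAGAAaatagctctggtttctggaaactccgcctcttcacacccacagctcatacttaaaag

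Gbp7 and Igtp carried both elements in this window, Irf1 the GAS core alone, and Gbp2, Ifit1 and Isg15 the ISRE core alone. In the full 300-base RefSeq window, 15 of 25 type I members (60%) and 5 of 7 interferon gamma-type members (71.4%) had an ISRE match. Among all 32851 promoters 8.56% had one. A GAS match was present in 5 of 25 (20%) and 3 of 7 (42.9%), against 8.30% of all promoters. Iigp1 is not among the 7, because its promoter was not searched, so these shares say nothing about it. Where a member had several entries, a match in any of them counted, while all promoters were counted entry by entry. ISRE matches were no less common in the interferon gamma-type list than in the type I list, so this element did not separate the lists. A match describes the letters and not a bound site. Several members are neighbors: Gbp7, Gbp3 and Gbp2 lie together on chromosome 3, Ifit2, Ifit3, Ifit3b and Ifit1 on chromosome 19, and Rsad2 beside Cmpk2 on chromosome 12.

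In the vehicle group the 2 lists were highest in different cells. Among classes with at least 20 vehicle cells, the summed type I level was highest in monocyte-like cells, at 3212 CPM in the spleen-labelled library and 2383 CPM in the liver-labelled library, followed in the spleen-labelled library by macrophage-like cells at 2414 CPM. T cell-like (1680 CPM) and endothelial-like (1616 CPM) cells came next and their intervals overlapped. Neutrophil-like cells stood at 819 CPM and hepatocyte-like cells at 295 CPM. The interferon gamma-type sum was highest in macrophage-like (641 CPM) and endothelial-like (637 CPM) cells of the spleen-labelled library and in T cell-like (625 CPM) and NK cell-like (551 CPM) cells of the liver-labelled library, and the intervals of these 4 overlapped. The place of endothelial-like cells rested largely on a single cell. With other hashtag calls (MULTIseqDemux and the dominant hashtag) they had 313 and 336 CPM. T cell-like cells of the same library then had 539 and 488 CPM. Granulocyte progenitor-like cells of the liver-labelled library, the dividing precursors of neutrophils, were lowest at 34.8 CPM. Ly6e, Ifi27l2a, Bst2 and Trim30a held much of the type I sum in most classes (Ly6e 41.9% of it in monocyte-like cells of the liver-labelled library), so a difference in a sum can rest on few members. List medians are given beside the sums for some classes only.

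**Figure D1:**
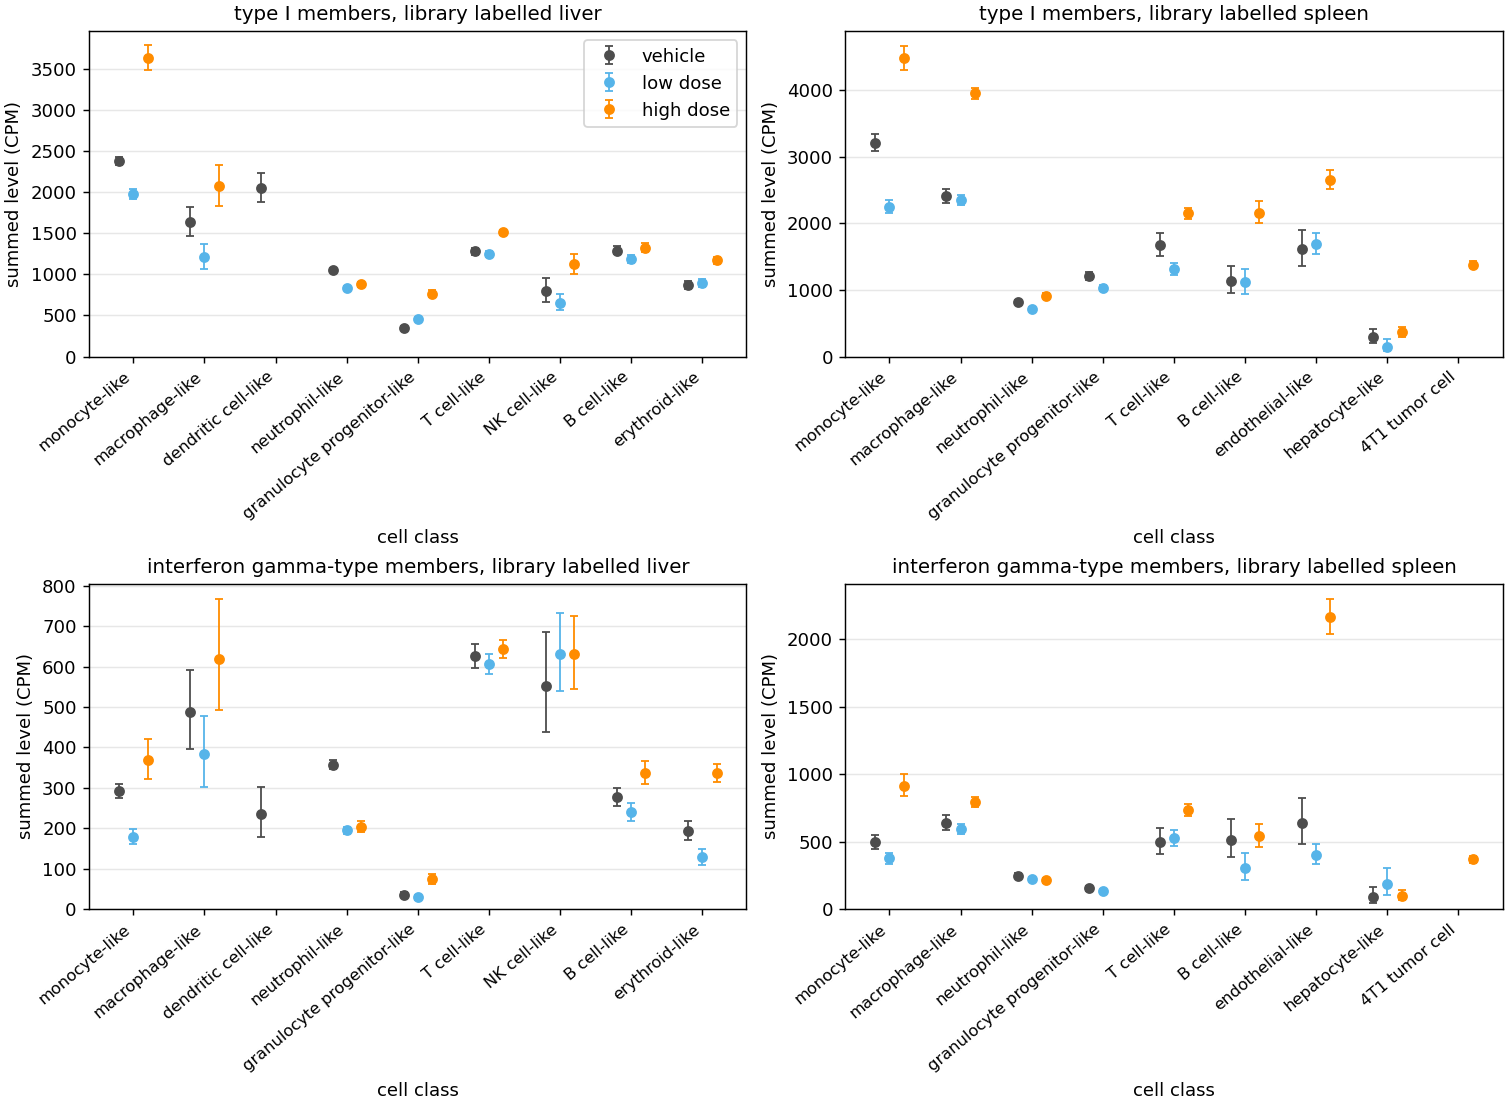
Summed level (CPM) of the 32 type I and the 8 interferon gamma-type members in each class and hashtag group with at least 20 cells, in the liver-labelled library and the spleen-labelled library. Bars are exact 95% Poisson intervals and cover counting error only. The interferon gamma-type sum of endothelial-like cells stands at 637 CPM in the vehicle and 2163 CPM in the high-dose group.

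Endothelial-like cells of the spleen-labelled library held the highest interferon gamma-type level of any named class at the high dose. Their leading genes included Clec4g, Gpr182 and Kdr, and 36 vehicle, 104 low-dose and 110 high-dose cells were available. The summed level was 637 CPM in the vehicle [484, 824], 404 CPM [334, 484] at the low dose and 2163 CPM [2036, 2296] at the high dose, a log2 ratio of 1.76 [1.38, 2.17] for the high dose against the vehicle and -0.66 [-1.13, -0.18] for the low dose. The direction at the low dose did not hold with other hashtag calls, given below. All 8 interferon gamma-type members were counted and all 8 were at least 2-fold higher at the high dose, while 13.3% of all counted genes were. Their median log2 ratio was 1.97, against 0.08 over all counted genes.

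The immunity-related GTPases, a family with a part in the defense at the vacuoles around intracellular microbes, were all higher at the high dose. Iigp1 had 374 CPM in the vehicle, 118 CPM at the low dose and 1008 CPM at the high dose (log2 ratio 1.43 [0.93, 1.98]). Irgm1 had 65.9, 45.2 and 235 CPM (1.83), Ifi47 had 44.0, 31.3 and 181 CPM (2.04) and Igtp had 33.0, 20.9 and 122 CPM (1.89), with the low dose below the vehicle in each. The guanylate-binding proteins, which act at the same vacuoles, differed by as much. Gbp7 had 65.9 CPM in the vehicle, 111 CPM at the low dose and 305.2 CPM at the high dose (2.21 [1.06, 3.68]), and Gbp2 had 22.0, 20.9 and 94.4 CPM (2.10). Gbp3 had 0 UMIs in the vehicle, 17.4 CPM at the low dose and 80.3 CPM at the high dose, at least 2.44-fold higher than the 33.0 CPM that 3 UMIs in the vehicle would make. Irf1, the transcription factor that carries the interferon gamma signal on to later genes, had 33.0, 38.3 and 137 CPM (2.05). Vehicle counts were small, between 0 and 6 UMIs for each member except Iigp1 with 34.

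**Figure D2:**
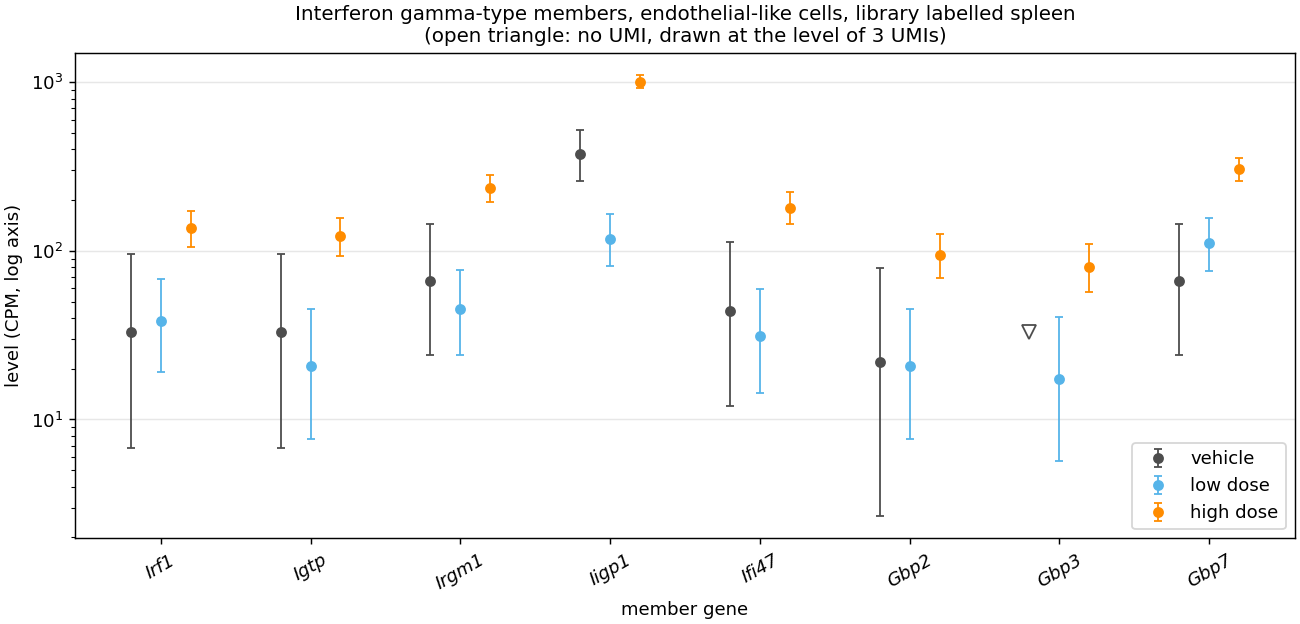
Level (CPM, log axis) of the 8 interferon gamma-type members in endothelial-like cells of the spleen-labelled library by hashtag group, with exact 95% Poisson intervals. An open triangle marks no UMI and is drawn at the level of 3 UMIs. All 8 high-dose points lie above the vehicle points, from 80.3 CPM for Gbp3 to 1008 CPM for Iigp1.

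The vehicle level of these cells rested heavily on 1 cell, which held 31 of the 58 interferon gamma-type UMIs and 22 of the 34 of Iigp1. At the high dose 87 of 110 cells had such a UMI and the top cell held 6.0% of them. Without the top cell of each group the log2 ratio of the sum was 2.69 [2.14, 3.30]. The high-dose difference was present in both clusters of the class, at 1.67 [1.26, 2.11] in the larger and 1.11 [0.01, 2.40] in the smaller. The low-dose direction changed with the hashtag call. MULTIseqDemux gave 313 CPM in the vehicle (27 cells) and 443 CPM at the low dose (100 cells). The dominant hashtag gave 336 CPM (29 cells) and 463 CPM (108 cells). After each cell was thinned to 500 UMIs, the share of cells with an interferon gamma-type UMI was 25.0% in the vehicle [12.1, 42.2], 9.6% at the low dose [4.7, 17.0] and 46.4% at the high dose [36.8, 56.1], with exact binomial intervals, where the unthinned shares were 52.8%, 41.3% and 79.1%. No class here is known to lack these genes. Hepatocyte-like cells of the same library, thinned alike, gave 7.14%, 7.41% and 3.75%. Mitochondrial UMIs made up 73.3%, 81.8% and 85.9% of their UMIs, against 19.5%, 16.0% and 21.2% in endothelial-like cells. Few other UMIs were left to them after thinning, so their shares cannot serve as a control. Median UMIs per endothelial-like cell were 1381.5, 2070.5 and 3462. Erythroid markers summed to 24915 CPM in the vehicle cells of this class, against 62.6 and 32.1 CPM at the low and high dose, and neutrophil markers to 1890, 3291 and 773 CPM. Macrophage markers summed to 1099, 2181 and 2295 CPM and monocyte markers to 87.9, 125 and 464 CPM in the 3 groups. The part of these differences in the result was not tested.

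Type I members differed less in the same endothelial-like cells. The summed level was 1616 CPM in the vehicle, 1694 CPM at the low dose and 2653 CPM at the high dose (0.72 [0.47, 0.97]), and of 19 counted members 15 were above and 4 below the vehicle, with 5 at least 2-fold higher, while 13.3% of all counted genes were. The type I ratio was 0.80 [0.52, 1.10] in the larger cluster and -0.35 [-0.93, 0.26] in the smaller. Ly6e, a surface protein anchored in the membrane, had 253, 247 and 663 CPM (1.39 [0.78, 2.07]) and was seen in 70 of 110 high-dose cells. Ifi27l2a, a mitochondrial protein, had 22.0, 69.6 and 157 CPM (2.83 [0.93, 5.90]), with 31% of its high-dose UMIs in 1 cell. Ifi44, Herc6 and Ifit2 made up the 5, each with 1 or 3 UMIs in the vehicle and an interval that spans 0. Among the 4 below the vehicle, each with an interval that spans 0, Isg15, the ubiquitin-like modifier, had 55.0, 10.4 and 32.1 CPM, Oasl2 had 65.9, 45.2 and 42.2 CPM, Rtp4 had 76.9, 59.1 and 52.2 CPM and Ifi35 was at -0.07. Bst2, which tethers budding virus to the cell surface, had 341, 383 and 434 CPM (0.35 [-0.20, 0.94]), an interval that spans 0. The plot of the members by class sets these cells beside the others.

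**Figure D3:**
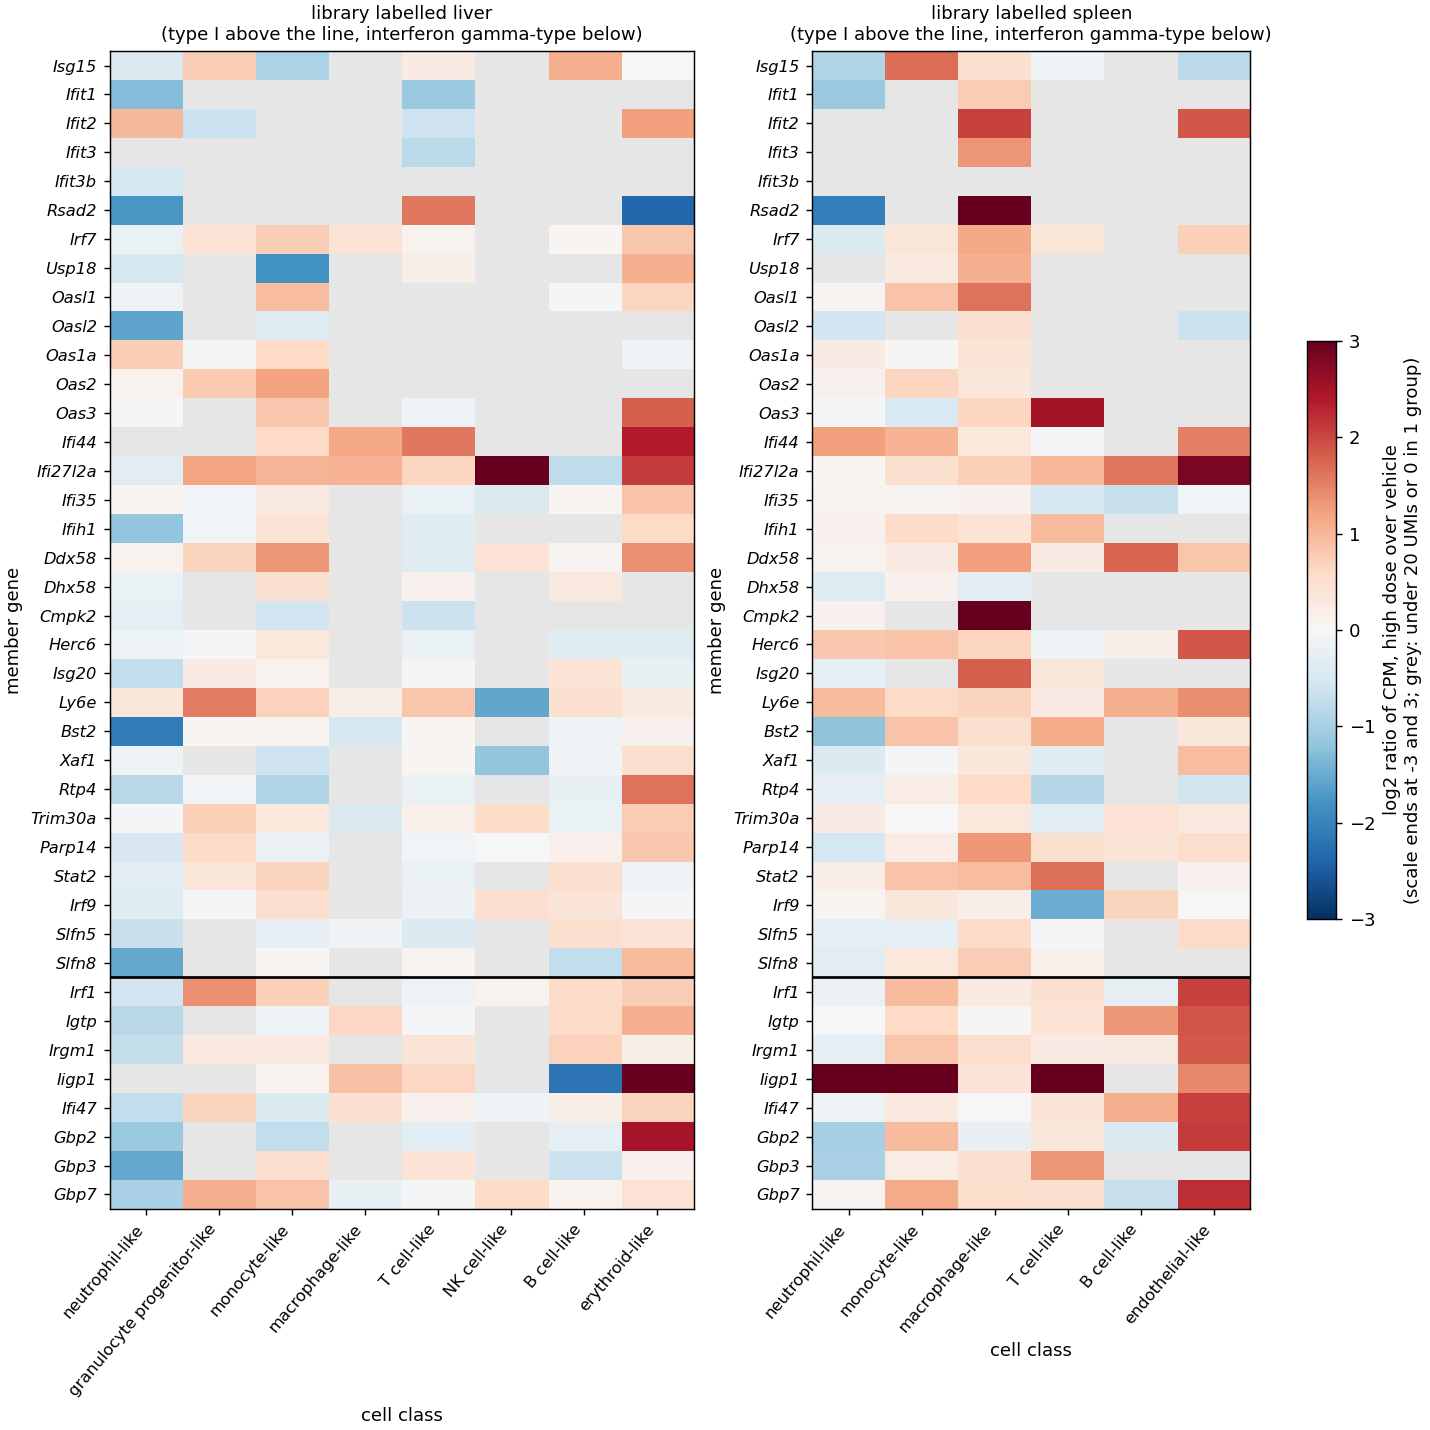
Log2 ratio of high dose to vehicle for each of the 40 members (lines) in each class (columns) of the liver-labelled library and the spleen-labelled library, with the 32 type I members above the line and the 8 interferon gamma-type members below it. Grey marks members under 20 UMIs over both groups or with 0 UMIs in 1 group. The endothelial-like column is higher at the high dose for every interferon gamma-type member except Gbp3, which is grey because it had 0 UMIs in the vehicle.

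Macrophage-like cells of the spleen-labelled library showed the reverse balance, with the larger difference in the type I list. In 63 vehicle, 116 low-dose and 125 high-dose cells the type I sum was 2414 CPM [2308, 2524], 2350 CPM and 3957 CPM [3876, 4039], a log2 ratio of 0.71 [0.64, 0.78] for the high dose and -0.04 for the low dose. Of 31 counted members 30 were above the vehicle at the high dose, and 10 were at least 2-fold higher, while 6.42% of all counted genes were. Their median log2 ratio was 0.65, against 0.04 over all genes. The interferon gamma-type sum was 641, 593 and 790 CPM (0.30 [0.16, 0.45]), with 7 of 8 members above the vehicle and 0 past 2-fold.

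The 10 were the transcription factor Irf7, the RNA sensor Ddx58 and 8 effectors. Irf7, the factor that amplifies type I interferon, had 118 CPM in the vehicle, 125 CPM at the low dose and 261 CPM at the high dose (1.14 [0.83, 1.47]), and 92 of 125 high-dose cells had its UMIs. Ddx58, which encodes the RNA sensor RIG-I, had 21.2, 24.4 and 49.8 CPM (1.23 [0.49, 2.06]). Oasl1 had 17.5, 29.1 and 54.1 CPM (1.63 [0.83, 2.54]) and Parp14, an ADP-ribosyltransferase, had 42.4, 86.5 and 104 CPM (1.29 [0.77, 1.86]). For Parp14 the low dose was also past 2-fold (1.03), the only type I member of which this held in these cells. The neighbors Rsad2 and Cmpk2, whose enzymes act in turn to make an antiviral nucleotide, differed most. Rsad2 had 9.97, 14.5 and 121 CPM (3.60 [2.60, 4.82]), but 191 of its 279 high-dose UMIs were in 1 cell, and without the top cell of each group the log2 ratio was 2.12 [1.02, 3.48]. Cmpk2 had 1.25, 3.30 and 26.0 CPM (4.38 [1.85, 9.71]) in 21 high-dose cells, with 45% of its UMIs in 1 of them. Ifit2, an RNA-binding effector, had 8.73, 3.96 and 36.4 CPM (2.06 [0.95, 3.42]). Ifit3, Isg20 and Usp18 made up the 10, at 15.6, 8.66 and 15.6 CPM at the high dose. Without the top cell of each group for each member, 10 members were still past 2-fold.

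**Figure D4:**
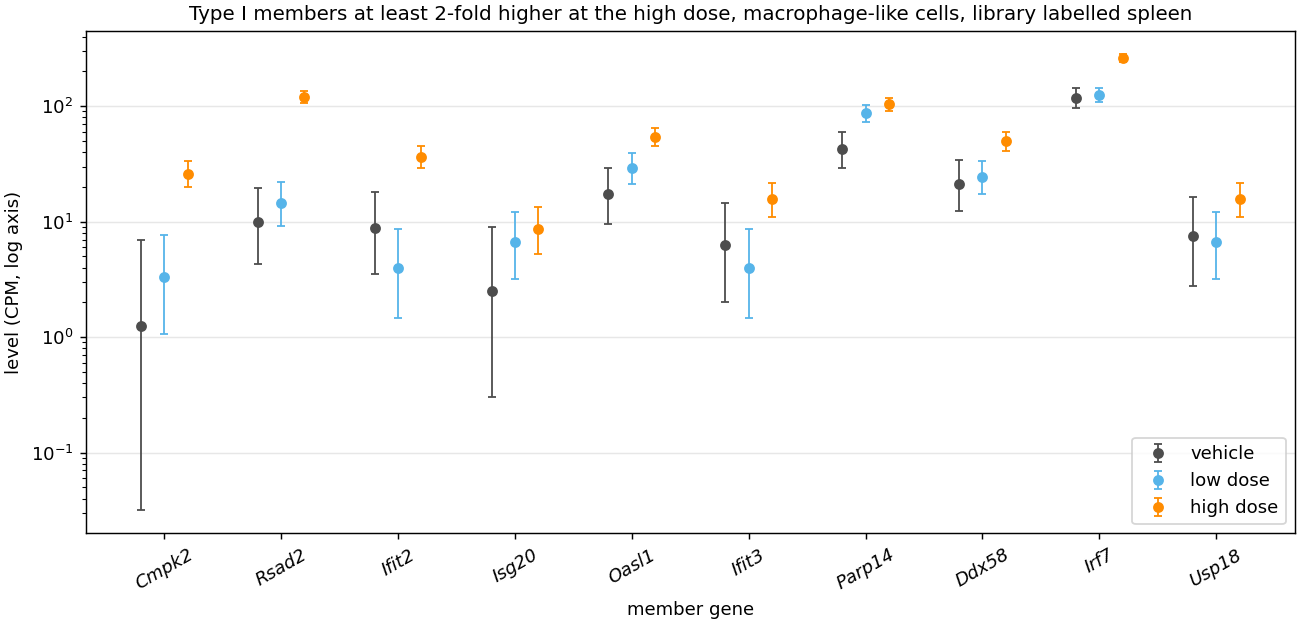
Level (CPM, log axis) of the 10 type I members that were at least 2-fold higher at the high dose in macrophage-like cells of the spleen-labelled library, by hashtag group, with exact 95% Poisson intervals. Irf7 is the most abundant at 261 CPM in the high-dose group, and the low-dose points lie near or below the vehicle points for Ifit2, Ifit3 and Usp18.

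The abundant type I members differed by less in macrophage-like cells. Ly6e had 646, 562 and 1023 CPM (0.66 [0.53, 0.80]), Ifi27l2a had 602, 662 and 984 CPM (0.71 [0.57, 0.85]) and Stat2, a subunit of the ISRE-binding complex, had 34.9, 44.2 and 66.3 CPM (0.92). Isg15 had 62.3, 58.1 and 85.3 CPM (0.45), with an interval that reached 0. Dhx58, a regulator of the RNA sensors, was the 1 member below the vehicle, at 36.2, 31.7 and 28.6 CPM. Of the interferon gamma-type members, Gbp7 had 136, 112 and 196 CPM (0.53), Iigp1 had 117, 92.5 and 153 CPM (0.38) and Gbp2 had 63.6, 63.4 and 54.1 CPM (-0.23). The larger cluster, led by Arg1 and Ccl8, showed the type I difference (0.62 [0.55, 0.70]) and a gamma-type difference of 0.06. The smaller, led by the liver macrophage genes Clec4f and Marco, had 8 vehicle cells, too few for a value, and type I sums of 3898 and 4889 CPM at the low and high dose. Median UMIs per macrophage-like cell were 10749, 11598 and 17481. Neutrophil markers summed to 1036, 5815 and 6516 CPM in these cells and NK cell markers to 112, 54.8 and 373 CPM, and the part of these differences in the result was not tested.

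Monocyte-like cells of the spleen-labelled library differed in both lists. In 71 vehicle, 79 low-dose and 38 high-dose cells the interferon gamma-type sum was 497, 375 and 915 CPM (0.88 [0.69, 1.08]) and the type I sum was 3212, 2255 and 4481 CPM (0.48 [0.40, 0.56]). All 8 gamma-type members were above the vehicle at the high dose with 2 at least 2-fold higher, and of 24 type I members 21 were above with 2 at least 2-fold higher, while 4.47% of all counted genes were. Iigp1 had 7.99, 3.22 and 99.7 CPM (3.64 [2.43, 5.15]), in 8 of 38 high-dose cells. Gbp7 had 87.9, 70.9 and 190 CPM (1.12 [0.66, 1.58]), and Gbp2, Irf1 and Irgm1 lay just short of 2-fold at 0.95, 0.94 and 0.84. Isg15 had 47.9, 45.1 and 153 CPM (1.68 [1.10, 2.28]) and Ifi44 had 67.9, 53.7 and 141 CPM (1.05). With other hashtag calls the gamma-type difference was smaller. MULTIseqDemux gave a high-dose sum of 699 CPM (65 cells) beside 505 CPM for the vehicle (71 cells). The dominant hashtag gave 804 CPM (54 cells) beside 496 CPM (74 cells). Few cells carried the differences under the HTODemux calls. A single high-dose cell held 24.5% of the gamma-type UMIs, and without the top cell of each group for each member 2 members were past 2-fold in place of 4, with Gbp7 at 0.98. Low-dose levels were mostly below the vehicle, with a type I ratio of -0.51 and a gamma-type ratio of -0.41, and 2 type I members, Oas3 and Rtp4, were at least 2-fold lower, while 1.97% of all counted genes were.

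Neutrophil-like cells of the liver-labelled library had lower levels of both lists at both doses. In 1427 vehicle, 1289 low-dose and 198 high-dose cells the interferon gamma-type sum was 357, 195 and 204 CPM (-0.81 [-0.92, -0.70] for the high dose, -0.87 for the low dose) and the type I sum was 1059 [1041, 1078], 837 and 880 [851, 909] CPM (-0.27 [-0.32, -0.21] and -0.34). All 7 counted gamma-type members were below the vehicle at the high dose, as were 23 of 30 type I members. In this class 2 gamma-type and 6 type I members were at least 2-fold lower, while 17.8% of all counted genes were, and 0 were at least 2-fold higher, while 1.07% of all counted genes were. The list medians were -0.83 and -0.31, and the median of all genes was -0.38. At the low dose 5 of 7 and 8 of 31 were at least 2-fold lower, while 2.84% of all counted genes were, and the median of all genes was -0.11. The type I ratio at the high dose depended on which cells formed the class and how they were weighted: it was -0.02 at a finer clustering (resolution 1.6) and -0.87 as a mean over cells.

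Gbp2 was the clearest of the gamma-type members in these neutrophil-like cells, with 73.5 CPM in the vehicle, 37.9 CPM at the low dose and 34.2 CPM at the high dose (-1.11 [-1.38, -0.84]). Gbp3 had 7.37, 1.99 and 2.53 CPM (-1.54), Gbp7 had 55.8, 24.6 and 28.3 CPM (-0.98), and Igtp, Irgm1 and Ifi47 lay between -0.83 and -0.72. Irf1 had 109, 85.5 and 72.9 CPM (-0.58). Among type I members, the RNA-sensing helicase Ifih1, which encodes MDA5, had 15.7, 9.93 and 7.09 CPM (-1.15), Oasl2 had 33.5, 13.7 and 11.1 CPM (-1.59 [-2.07, -1.14]), and Bst2 had 9.71, 4.60 and 2.28 CPM (-2.09). Rsad2, Slfn8 and Ifit1 made up the 6, at -1.75, -1.53 and -1.29. Other members did not share this direction. Trim30a, which restrains inflammatory signaling, had 135, 137 and 131 CPM, Ly6e had 98.0, 88.8 and 125 CPM (0.35 [0.19, 0.50]), and Oas1a had 7.78, 8.13 and 12.9 CPM (0.73 [0.21, 1.24]).

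These class sums mixed clusters whose share of the cells differed between groups. In the liver-labelled library, clusters 2 and 3, led by Il1b, held 649 and 362 of the 1427 vehicle neutrophil-like cells and 9 and 3 of the 198 high-dose cells, and they had the highest vehicle levels of the class (type I 2298 and 2026 CPM, gamma-type 888 and 875 CPM). Cluster 5, led by the stefin genes Stfa3 and Stfa2, held 231 vehicle and 147 high-dose cells and had lower levels. Within cluster 5 the direction was the opposite of that of the class. Its type I sum was 541 CPM in the vehicle, 492 CPM at the low dose and 884 CPM at the high dose (0.71 [0.63, 0.79]), and its gamma-type sum was 105, 83.4 and 216 CPM (1.05 [0.87, 1.23]). Of its counted members 24 of 26 type I and 6 of 6 gamma-type members were above the vehicle, and 6 and 4 were at least 2-fold higher, while 2.37% of all counted genes were. Clusters 8 and 12, led by Retnlg and Ltf, had type I ratios of 0.73 and 0.60 and gamma-type ratios of 0.02 and 0.05 with 22 and 17 high-dose cells. Within clusters 2 and 3 the low dose was below the vehicle in both lists, at -0.51 and -0.24 for type I and -0.92 and -0.91 for gamma-type.

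**Figure D5:**
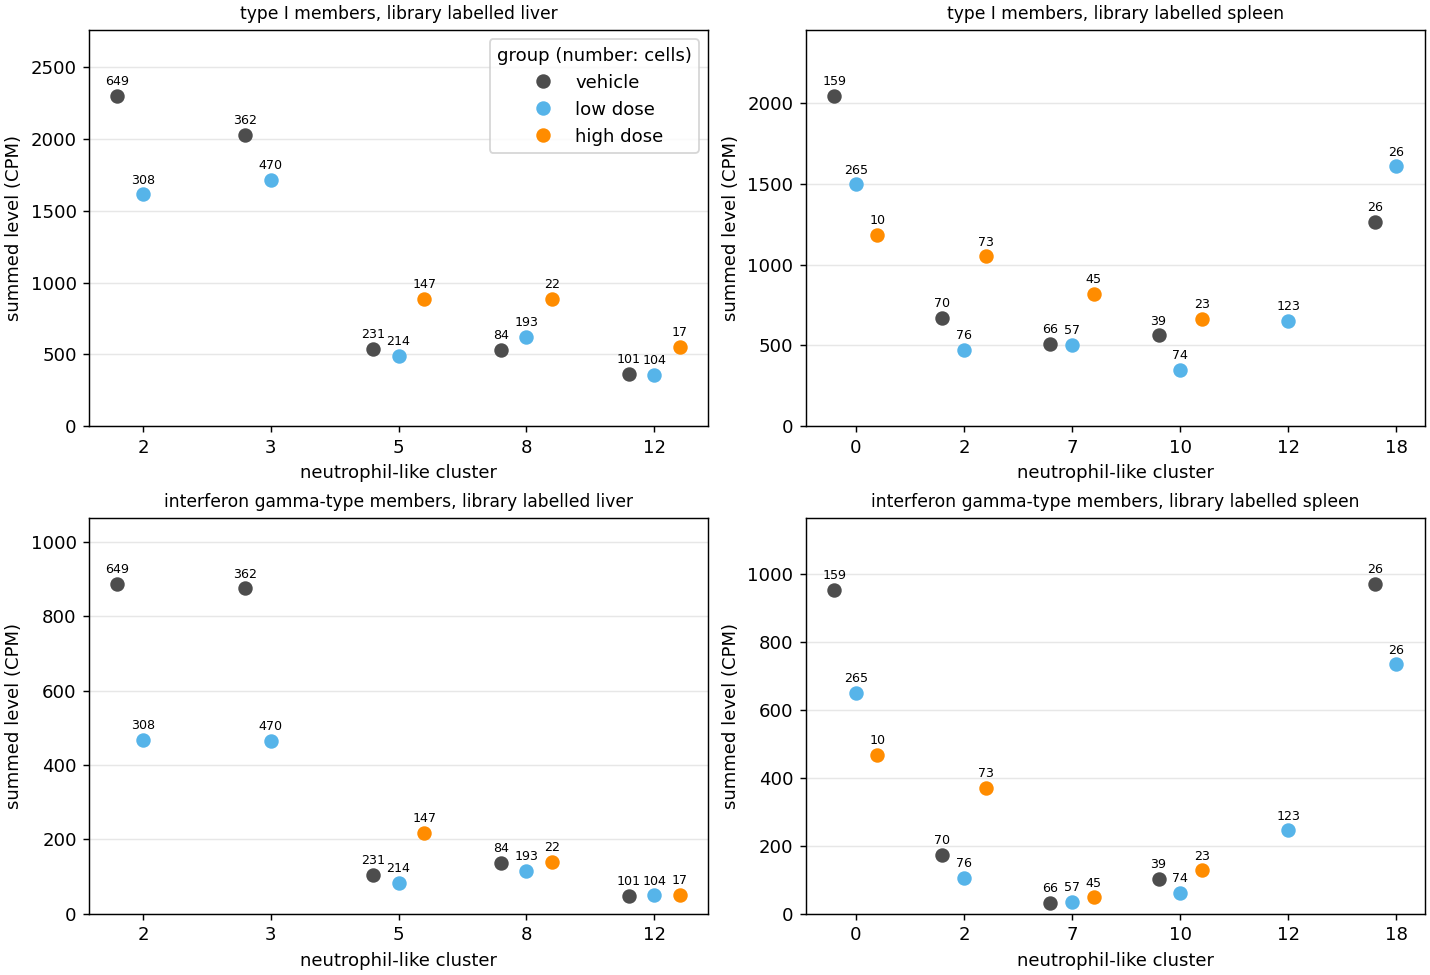
Summed level (CPM) of the type I and interferon gamma-type members in each neutrophil-like cluster and hashtag group with at least 10 cells, in the liver-labelled library and the spleen-labelled library, with the number of cells beside each point and no error bars. The Il1b-led clusters stand highest in the vehicle (2298 CPM type I in cluster 2 of the liver-labelled library) and have few or no high-dose cells, while the Stfa3-led clusters are higher at the high dose.

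The members at least 2-fold higher in cluster 5 of the liver-labelled library came from both lists, with ratios from 1.01 (Oasl2) to 1.54 (Herc6). Igtp had 9.42 CPM in the vehicle, 6.67 CPM at the low dose and 25.6 CPM at the high dose (1.44 [0.87, 2.04]), Irgm1 had 8.46, 6.67 and 21.0 CPM (1.31 [0.70, 1.95]) and Gbp7 had 14.0, 7.89 and 30.2 CPM (1.11 [0.62, 1.61]). Isg15 had 21.7, 22.4 and 59.8 CPM (1.46 [1.09, 1.84]), seen in 67 of 147 high-dose cells with 12.1% of its UMIs in 1 of them. Ly6e had 46.6, 58.2 and 102 CPM (1.13) and Oas2, which makes the messenger that activates RNase L, had 12.8, 12.7 and 29.9 CPM (1.22). Herc6 had 3.38, 3.64 and 9.85 CPM (1.54 [0.58, 2.57]), from 14 vehicle and 30 high-dose UMIs, and Slfn5 had 9.66, 5.46 and 24.6 CPM (1.35 [0.78, 1.94]). The high-dose levels lay above both other groups for each of these, and the low dose was at or below the vehicle except for Ly6e, Isg15 and Herc6. Median UMIs per cell in cluster 5 were 16131 in the vehicle and 18695 at the high dose, nearer to each other than the class medians of 4370 and 18598.

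In the spleen-labelled library the neutrophil-like class sums hardly differed at the high dose, at 819, 715 and 914 CPM for type I (0.16 [0.07, 0.24]) and 246, 222 and 214 CPM for gamma-type (-0.20 [-0.36, -0.03]). Of 28 type I members 14 were above and 14 below the vehicle. In all, 1 type I and 1 gamma-type member were at least 2-fold higher, while 3.03% of all counted genes were, and 3 type I members were at least 2-fold lower, while 3.72% of all counted genes were. These directions were not stable: the type I ratio was -0.15 without Ly6e, -0.03 with another hashtag caller (MULTIseqDemux) and -0.52 as a mean over cells, and the gamma-type ratio was 0.26 with cells over 10% mitochondrial UMIs left out. Ly6e had 173, 142 and 331 CPM (0.94 [0.77, 1.10]) and Iigp1 had 1.35, 2.29 and 15.4 CPM (3.52 [2.04, 5.47]) in 10 of 156 high-dose cells. Ifi44 was the type I member at least 2-fold higher (1.24), and Rsad2, Bst2 and Ifit1 were lower (-2.05, -1.21 and -1.12).

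The Stfa3-led cluster of that library, cluster 2, showed the same direction as cluster 5 of the liver-labelled library. Its 70 vehicle, 76 low-dose and 73 high-dose cells had type I sums of 671, 472 and 1050 CPM (0.65 [0.48, 0.81]) and gamma-type sums of 173, 107 and 371 CPM (1.10 [0.79, 1.42]). Of its counted members 17 of 20 type I and 6 of 6 gamma-type members were above the vehicle, and 7 and 5 were at least 2-fold higher, while 5.33% of all counted genes were. Gbp7 had 20.2, 15.5 and 62.2 CPM (1.62 [0.75, 2.59]), Irf1 had 60.6, 54.1 and 130 CPM (1.11 [0.58, 1.66]) and Isg15 had 20.2, 20.1 and 51.4 CPM (1.35 [0.45, 2.33]). Bst2 went the other way, with 22 UMIs in the vehicle and 2 at the high dose (-3.73). The Il1b-led cluster 0 held 159 vehicle and 10 high-dose cells, and both lists were lower there at the high dose (type I -0.79 [-1.11, -0.48], gamma-type -1.03 [-1.56, -0.54]). Cluster 7, led by Camp, had a type I ratio of 0.69 [0.54, 0.84], but of its 10 counted type I members 6 were above and 4 below the vehicle, with a median of 0.13 against 0.10 over all genes. Ly6e there had 270.6, 330.3 and 595 CPM (1.14), while Isg15 had 22.3, 1.87 and 7.71 CPM (-1.53) and Ifi27l2a had 33.8, 23.4 and 9.63 CPM (-1.81).

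After neutrophil-like cells of the liver-labelled library were thinned to 500 UMIs, 45.8% of vehicle cells [43.2, 48.5], 36.5% of low-dose cells and 32.3% of high-dose cells [25.9, 39.3] had a type I UMI, and 25.9%, 15.6% and 10.1% had a gamma-type UMI. Before thinning the type I shares were 95.9%, 94.3% and 99.5%, the last in cells with a median of 18598 UMIs.

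Monocyte-like cells of the liver-labelled library had higher sums of both lists at the high dose and lower sums at the low dose. In 159, 97 and 26 cells the type I sum was 2383, 1979 and 3638 CPM (0.61 [0.54, 0.68] and -0.27) and the gamma-type sum was 292, 179 and 369 CPM (0.34 [0.13, 0.55] and -0.71). The type I sum leaned on few members. Ly6e made up 41.9% of it in the vehicle and 44.6% at the high dose. The 3 most abundant members, Ly6e and Ifi27l2a among them, made up 67.4% and 75.8%. At the high dose 3 of 27 type I members were at least 2-fold higher, while 4.06% of all counted genes were: Ifi27l2a had 482, 483 and 983 CPM (1.03), Ddx58 had 14.3, 13.5 and 35.1 CPM (1.30) and Oas2 had 10.4, 14.5 and 24.0 CPM (1.20). Usp18, which removes ISG15 and damps the type I receptor, was the 1 member at least 2-fold lower, with 5.65, 1.08 and 1.6 CPM. At the low dose 3 type I and 4 gamma-type members were at least 2-fold lower, while 2.70% of all counted genes were. Gbp7 had 57.4, 37.7 and 104 CPM (0.86). Neutrophil markers summed to 11626, 15759 and 33566 CPM in these cells, and their part in the differences was not tested.

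Macrophage-like cells of the liver-labelled library, led by C1qa and Vcam1, had few UMIs (median 1602, 2846 and 866). Their type I sum was 1635, 1208 and 2073 CPM (0.34 [0.11, 0.58]) and their gamma-type sum was 487, 383 and 618 CPM (0.35 [-0.09, 0.78]). With 7 type I members counted, 2 were at least 2-fold higher, while 4.07% of all counted genes were. Ifi27l2a had 375, 238 and 777 CPM (1.05), with 49% of the high-dose UMIs in 1 cell, and Ifi44 had 43.8, 19.4 and 98.0 CPM (1.16). Ifi27l2a alone made up 22.9% of the type I sum in the vehicle and 37.5% at the high dose. Macrophage markers summed to 13227, 16067 and 8776 CPM in these cells. Neutrophil markers summed to 5042, 6930 and 1870 CPM and T cell markers to 1966, 1945 and 2322 CPM. The part of these differences in the result was not tested.

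In T cell-like cells the ratios of the high dose to the vehicle were given within each library, and the difference between the libraries was not tested. In the spleen-labelled library 43 vehicle, 103 low-dose and 169 high-dose cells had gamma-type sums of 497, 525 and 735 CPM (0.57 [0.28, 0.86]) and type I sums of 1680, 1319 and 2151 CPM (0.36 [0.20, 0.52]). The type I sums leaned on few members. The most abundant was Ly6e in the vehicle, with 26.3% of the sum, and Ifi27l2a at the high dose, with 37.4%. All 8 gamma-type members were above the vehicle at the high dose and 2 were at least 2-fold higher, and 3 of 20 type I members were, while 12.0% of all counted genes were. Iigp1 had 4.52, 8.02 and 54.8 CPM, from 1 vehicle UMI to 75 high-dose UMIs in 32 of 169 cells. Gbp3 had 22.6, 33.7 and 56.9 CPM (1.33 [0.05, 3.00]). Oas3, Stat2 and Bst2 were the 3 type I members, and Bst2 had 40.7, 32.1 and 87.6 CPM (1.11 [0.14, 2.27]). Irf9, the DNA-binding subunit of the ISRE complex, went the other way with 81.3, 22.5 and 29.2 CPM (-1.48 [-2.31, -0.59]). The cytotoxic cluster, led by Gzma and Gzmb, had a type I ratio of 0.08 and the cluster led by Il7r and Lef1 had 1.21 [0.87, 1.58], with gamma-type ratios of 0.54 and 0.67, the latter cluster with 19 vehicle cells. Macrophage markers summed to 54.2, 539 and 391 CPM in the T cell-like cells of this library, plasma cell markers to 0, 3.21 and 802 CPM and NK cell markers to 2489, 2410 and 3903 CPM, and their part in the differences was not tested.

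In the liver-labelled library 540, 792 and 955 T cell-like cells had gamma-type sums of 625, 606 and 644 CPM (0.04) and type I sums of 1285, 1249 and 1514 CPM (0.24 [0.18, 0.29]). The type I difference rested on 1 member. Ifi27l2a had 406, 446 and 638 CPM (0.65 [0.55, 0.75]), and without it the ratio was -0.00. Ly6e had 67.8, 68.0 and 121 CPM (0.83). Of 27 counted type I members 2 (Ifi44 and Rsad2, the latter with 65% of its high-dose UMIs in 1 cell) were at least 2-fold higher, while 2.13% of all counted genes were. Ifit1 had 17.5, 12.4 and 8.02 CPM (-1.12). Among the clusters, the one led by Foxp3 and Ctla4, genes of regulatory T cells, had 2176, 2338 and 2990 CPM of type I members (0.46 [0.35, 0.57]), and the one led by Lef1 and Cd4 had a ratio of -0.16.

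NK cell-like cells were named in the liver-labelled library, with 33, 63 and 60 cells. Their gamma-type sum was 551, 630 and 630 CPM (0.19) and their type I sum was 799, 657 and 1126 CPM (0.49 [0.19, 0.81]), or 0.22 without the top cell of each group. Ifi27l2a had 34.5, 45.3 and 366 CPM (3.41) with 78% of the high-dose UMIs in 1 cell, and was the member at least 2-fold higher, while 6.95% of all counted genes were. Xaf1, which blocks an inhibitor of apoptosis, had 103, 30.2 and 45.7 CPM (-1.18). Ly6e had 96.5, 11.3 and 32.6 CPM (-1.56), but 13 of its 14 vehicle UMIs lay in 1 cell and without the top cell of each group it turned to 1.70. Both were at least 2-fold lower, while 2.39% of all counted genes were. Ifi47 had 193, 223 and 176 CPM, Irf1 had 131, 166 and 140 CPM and Gbp7 had 124, 109 and 183 CPM.

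B cell-like cells of the spleen-labelled library (31, 34 and 66 cells) had type I sums of 1141, 1117 and 2163 CPM (0.92 [0.64, 1.21]) and gamma-type sums of 510, 301.1 and 542 CPM (0.09 [-0.36, 0.56]). Of 8 counted type I members 3 were at least 2-fold higher, and so were 2 of 6 gamma-type members, while 6.42% of all counted genes were. The vehicle cells held 123 type I and 55 gamma-type UMIs in all, so the vehicle counts of most single members were small. Ddx58 and Igtp passed the UMI minimum mostly through their high-dose UMIs, and the ratios of single members are given without intervals. Ifi27l2a had 186, 325 and 565 CPM (1.61), Ly6e had 353, 428 and 742 CPM (1.07), Ddx58 had 18.6, 31.7 and 62.1 CPM (1.74), Ifi47 had 55.7, 79.2 and 118 CPM (1.08), and Igtp had 27.8, 39.6 and 68.6 CPM (1.30, but -0.11 as a mean over cells). In the liver-labelled library the 528, 549 and 446 B cell-like cells had type I sums of 1291, 1187 and 1327 CPM (0.04 [-0.04, 0.12]) and gamma-type sums of 276, 239 and 337 CPM (0.29 [0.12, 0.46]). There Ifi27l2a was lower, with 354, 232 and 210 CPM (-0.75), Ly6e had 403, 410 and 566 CPM (0.49), and Isg15 was the 1 of 19 type I members at least 2-fold higher, while 1.31% of all counted genes were. These B cell-like cells lay in different clusters by group: cluster 19, with 2162 CPM of type I members in the vehicle, held 69 vehicle, 6 low-dose and 3 high-dose cells, and cluster 18 held 1, 150 and 3. Within cluster 1, which held 395, 245 and 345, the type I ratio was 0.17 [0.08, 0.26] and the gamma-type ratio 0.37 [0.19, 0.56].

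Erythroid-like cells of the liver-labelled library (48, 48 and 95 cells) had type I sums of 875, 900 and 1171 CPM (0.42 [0.32, 0.52]) and gamma-type sums of 194, 128 and 337 CPM (0.80 [0.60, 1.00]). All 8 gamma-type members were above the vehicle at the high dose and 3 were at least 2-fold higher, as were 7 of 25 type I members, while 5.48% of all counted genes were. Iigp1 had 2.20, 0 and 39.4 CPM (4.16) in 19 cells, Gbp2 had 5.13, 2.84 and 28.6 CPM (2.48), Ifi44 had 2.93, 3.55 and 15.2 CPM (2.37) and Ifi27l2a had 33.0, 173 and 142 CPM (2.10). Rsad2 was lower, with 38.8, 12.1 and 7.59 CPM (-2.35 [-3.16, -1.60]). The name of this class is loose. Erythroid markers summed to 12230, 18892 and 9183 CPM, and the leading genes included Myb and Cdk6 beside Hbb-bs and Hba-a1. T cell markers summed to 348, 502 and 919 CPM and granulocyte progenitor markers to 8635, 5266 and 2868 CPM. The vehicle value of the latter was near the 8438 CPM of granulocyte progenitor-like cells. The part of these other markers in the differences was not tested.

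Granulocyte progenitor-like cells of the liver-labelled library (109, 98 and 43 cells) had type I sums of 347, 460 and 768 CPM (1.15 [1.04, 1.26]), of which Ly6e made up most. Ly6e had 181, 334 and 533 CPM (1.56 [1.41, 1.70]) and was seen in all 43 high-dose cells, and without it the ratio was 0.50. Of 18 type I members 2 (Ly6e and Ifi27l2a) were at least 2-fold higher, and so were 2 of 4 gamma-type members, while 2.40% of all counted genes were. Irf1 had 10.6, 13 and 27.4 CPM (1.37 [0.74, 2.01]) and Gbp7 had 4.63, 3.79 and 9.87 CPM (1.09). The low dose had a type I ratio of 0.41, which was -0.39 without Ly6e. In the spleen-labelled library 14 high-dose cells of this class had a type I sum of 1509 CPM, against 1208 and 1029 CPM in the vehicle and low-dose groups.

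Tumor-like cells were few, and all in the spleen-labelled library: 6 from the vehicle group, 13 from the low-dose group and 41 from the high-dose group. Their type I sums were 517 CPM [389, 675], 969 CPM [873, 1074] and 1380 CPM and their gamma-type sums were 240, 341 and 368 CPM. With other hashtag calls the high-dose type I and gamma-type sums were lower. They were 975 and 274 CPM in 46 cells with MULTIseqDemux, and 1003 and 272 CPM in 123 cells with the dominant hashtag. At the high dose Bst2 had 288 CPM, Ly6e 226 CPM, Ifi27l2a 129 CPM, Isg15 89.3 CPM and Irf1 72.6 CPM, with all 40 members detected. Bst2 had 115 CPM [59.4, 201] in the vehicle from 12 UMIs. These groups hold too few vehicle cells for a ratio. Hepatocyte-like cells had the lowest type I levels of the named classes (295, 149 and 367 CPM) and between 73% and 86% mitochondrial UMIs. Plasmacytoid dendritic-like cells, known as the main makers of type I interferon, had type I sums of 4619, 4562 and 5300 CPM in 5, 8 and 12 cells, with Bst2 alone at 2502, 2741 and 2577 CPM. An unnamed cluster of the spleen-labelled library led by H2-Aa and Ciita, genes of MHC class II presentation, had gamma-type sums of 207, 280 and 852 CPM (2.04 [1.61, 2.50]) and type I sums of 1845, 1635 and 2794 CPM (0.60) in 63, 66 and 39 cells. In the liver-labelled library an unnamed cluster whose leading genes also included H2-Aa did not share this difference. Its gamma-type sums were 260, 184 and 283 CPM (0.12 [-0.45, 0.69]) in 61, 38 and 67 cells, and its type I ratio was -0.11.

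Dendritic-like cells of the liver-labelled library had a type I sum of 2057 CPM and a gamma-type sum of 235 CPM in 23 vehicle cells, 1081 and 242 CPM in 15 low-dose cells, and 1195 and 398 CPM in 6 high-dose cells. Plasma-like cells had type I sums of 1090, 1022 and 1112 CPM in 4, 11 and 7 cells.

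Across classes, members differed in how widely they were past 2-fold at the high dose. Iigp1 was at least 2-fold higher in 4 of the 5 classes where it was counted in the spleen-labelled library, and in the liver-labelled library it was so in 1 of 5 and at least 2-fold lower in 1. Ifi44 was at least 2-fold higher in 3 of 5 and 3 of 4. Ifi27l2a was so in 5 of 8 classes in the liver-labelled library and 2 of 7 in the spleen-labelled library. By class, 1.07% to 6.95% of all counted genes were at least 2-fold higher in the liver-labelled library. In the spleen-labelled library 3.03% to 13.3% were, hepatocyte-like cells left aside. Iigp1 passed the UMI minimum in some classes almost only through its high-dose UMIs, and some Ifi27l2a calls rested largely on a single cell. These counts therefore describe the calls only. Ifit3b had too few UMIs to be counted in any class of the spleen-labelled library. The vehicle levels of the 2 libraries differed as well. Granulocyte progenitor-like cells had 1208 CPM of type I members in the spleen-labelled library and 347 CPM in the liver-labelled library (1.80 [1.70, 1.90]). The 2 groups of cells were unlike: neutrophil markers summed to 15148 CPM in the former, led by Ctsg, Mpo and Cd34, and to 341199 CPM in the latter, led by Fcnb, Cebpe and histone genes. Monocyte-like cells had 3212 and 2383 CPM (0.43). Neutrophil-like cells went the other way, with 819 and 1059 CPM (-0.37).

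Other genes of the pathway were read from lists of inducers, receptors and targets chosen with the members. Of the ligands, Ifng had 16, 50 and 93 UMIs in T cell-like cells of the spleen-labelled library (72.3, 80.2 and 67.9 CPM). In NK cell-like cells of the liver-labelled library it had 10, 12 and 16 UMIs, out of 145109, 264952 and 306415 gene UMIs. Relative to those totals, neither dose was above the vehicle. The Ifng level in the T cell-like cells was not above the vehicle at the high dose. Of the type I and type III interferon genes looked up, Ifnk had 1 UMI over both libraries and the rest had 0. In endothelial-like cells 9 of 14 counted targets of interferon gamma outside the 40 were at least 2-fold higher at the high dose, while 13.3% of all counted genes were, with a median of 2.01: Gbp4 had 76.9 CPM in the vehicle and 715 CPM at the high dose (3.22), the T cell attractant Cxcl9 had 55.0 and 492 CPM (3.16), and the immunoproteasome subunit Psmb9 had 65.9 and 265 CPM (2.01). In monocyte-like cells of the spleen-labelled library 7 of 13 such targets were at least 2-fold higher, while 4.47% of all counted genes were, with Cxcl9 at 1.33 and 230 CPM and Cxcl10 at 20.0 and 196 CPM. In macrophage-like cells 3 of 18 were, while 6.42% of all counted genes were, with Cxcl10 at 8.73 and 74.9 CPM. Socs1, which shuts off the receptors' signal, had 6.66 and 81.9 CPM (3.62) in monocyte-like cells. Vehicle counts behind the named targets and Socs1 were small. The vehicle cells held 90988 gene UMIs in the endothelial-like, 750877 in the monocyte-like and 802010 in the macrophage-like class. These values are given without intervals or low-dose levels, and the part of single cells in them was not tested.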

How the data were processed

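Single-cell RNA was measured in 2 multiplexed droplet libraries of mouse cells. Filtered count matrices were deposited by the authors, holding raw UMI counts for genes and hashtags without normalization or cell type names. The submitters' processing notes name Cell Ranger 6.0.0, Seurat and the mm10 build, and the matrix header names Cell Ranger 5.0.0. From the deposited counts, HTODemux (Seurat 5.3.0, quantile 0.99) assigned hashtags, and only barcodes with exactly 1 were used. Scrublet (scanpy 1.11.5) marked 248 barcodes (2.59%) in the liver-labelled library and 1 (0.0207%) in the spleen-labelled library, where it had not worked, and none were removed. Each library was clustered alone with SCTransform (sctransform 0.4.2, R 4.3.3), 30 principal components and resolution 0.8, without the 40 members and the other pathway genes among the variable features (2932 and 2921 remained). This gave 22 and 20 clusters. The name of a class, written X-like, needed at least 3 fixed markers above the rest of the library by a log2 fold of 1.0 and seen in at least 20% of the cluster, and 3 and 2 clusters stayed unnamed. Low-quality cells were not removed.

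UMIs were summed per class and hashtag group in Python 3.11.15 with scipy 1.17.1, and classes with under 20 cells in a group were not compared. For single clusters the minimum was 10 cells. Gene UMIs totalled 17333148 to 26508853 per hashtag group in the liver-labelled library and 7130127 to 10589251 in the spleen-labelled library. Poisson, binomial and ratio intervals at 95% cover counting error only, and a count of 0 was read as allowing up to 3 counts. On simulated counts 95.7% of 9144 ratio intervals (liver label) and 96.1% of 7368 (spleen label) contained the simulated ratio. The simulation drew Poisson counts, as the intervals assume. It therefore checks the calculation only and does not cover UMIs that gather in single cells. In each class and library members were picked from the 5 with the highest vehicle level and the 5 with the largest rise and fall among those with at least 50 UMIs over both groups. Not all of these are named in every class, so the naming did not follow a fixed rule. An example is Ly6e, with 32.3% of the vehicle type I sum in monocyte-like cells of the spleen-labelled library. Members named beyond these were chosen after their values were seen. The members and lists were chosen with earlier results of these data known. Of 76 other pathway genes listed, 73 were measured, and Mx1, Mx2 and Mnda were not analysed here. One gene of the pathway lists is not reported here.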

Additional observations from a re-analysis of the deposited data

Results flagged for a closer look

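The type I sum of neutrophil-like cells went in opposite directions in the 2 libraries at the high dose, with a log2 ratio to the vehicle of -0.27 in the liver-labelled library and 0.16 in the spleen-labelled library. The type I sum of granulocyte progenitor-like cells did so at the low dose, at 0.41 in the liver-labelled library and -0.23 in the spleen-labelled library. Each library holds 1 pooled sample per group, so these differences between libraries were not tested.

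Barcodes without a hashtag call enter no comparison. In the spleen-labelled library 1627 such barcodes had an interferon gamma-type level of 492 CPM [472, 512], above the 309 CPM [296, 322] of the vehicle group, and in 1532 of them the high-dose hashtag was the most abundant. Their type I level was 1389 CPM, against 1426 CPM in the vehicle. In the liver-labelled library 540 such barcodes had 151 CPM of interferon gamma-type and 958 CPM of type I members, below the vehicle levels of 320 and 1181 CPM.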

How the results depend on the processing

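No paired analysis was possible because each library is 1 sample and the hashtag groups share no replicate numbers. The alternatives were another hashtag call, cell filter, doublet removal, resolution, feature set, weighting or total, and a treated group made of low-dose cells or of both doses. Leaving out, in each group, the cell with the most UMIs of an item was added after seeing the data. Values are log2 ratios to the vehicle, and the cause of a move was not tested.
In neutrophil-like cells of the liver-labelled library the type I ratio was -0.084 at resolution 0.4, -0.019 at 1.6, -0.87 as a mean over cells, -0.14 without the 20 most abundant genes and -0.34 at the low dose. The gamma-type ratio was -0.45 at resolution 1.6, -1.39 as a mean over cells, -0.68 without the 20 most abundant genes and -0.92 without its most abundant member. Members at least 2-fold higher numbered 1 without Scrublet doublets, at resolution 0.4 and without the abundant genes, and those lower numbered 2 at resolution 1.6, 20 as a mean over cells and 13 at the low dose.
In T cell-like cells of that library the type I ratio was 0.12 as a mean over cells or with both doses, -0.041 at the low dose and -0.0050 without its most abundant member, and the gamma-type ratio was -0.046 at the low dose. Rsad2 there was -0.19 under the dominant hashtag and -1.08 at the low dose. Granulocyte progenitor-like cells had a gamma-type ratio of -0.26 at the low dose.
In neutrophil-like cells of the spleen-labelled library the type I ratio was -0.025 under MULTIseqDemux, 0.0080 under the dominant hashtag, 0.34 with the cell filter, -0.52 as a mean over cells, -0.20 at the low dose, -0.054 with both doses and -0.15 without Ly6e. The gamma-type ratio was -0.45, -0.55, 0.26 and -0.96 under the first 4 of these. Members at least 2-fold higher numbered 1 under MULTIseqDemux, the dominant hashtag, all variable features, both doses and without the top cells, and 0 at the low dose, and those lower numbered 6 under MULTIseqDemux and 12 as a mean over cells.
In T cell-like cells there the type I ratio was 0.52 under MULTIseqDemux, 0.59 at resolution 1.6, -0.35 at the low dose and 0.17 with both doses, and the gamma-type ratio was 0.079 at the low dose. In macrophage-like cells the type I ratio was 0.59 under MULTIseqDemux, 0.62 under the dominant hashtag, 0.84 with the cell filter, 0.57 as a mean over cells, -0.039 at the low dose and 0.46 with both doses. The gamma-type ratio was 0.093 under MULTIseqDemux, -0.11 at the low dose and 0.15 with both doses. Members higher numbered 1 at the low dose and 6 with both doses, and 1 was lower at the low dose.
In endothelial-like cells the gamma-type ratio was 2.42 under MULTIseqDemux, 2.29 under the dominant hashtag, -0.66 at the low dose, 1.25 with both doses and 2.69 without the top cells, and the type I ratio was 0.069 at the low dose. The low-dose gamma-type sum was above the vehicle under MULTIseqDemux (443 beside 313 CPM) and under the dominant hashtag (463 beside 336 CPM). At the low dose 1 member was higher and 1 lower, 1 was lower with both doses, and 2 were lower when members with 1 UMI were counted.
At the low dose these members turned direction under the HTODemux calls. In the liver-labelled library they were Ddx58 in monocyte-like cells (-0.085) and Ifi44 (-1.17) and Ifi27l2a (-0.66) in macrophage-like cells. In the spleen-labelled library they were Rsad2 (0.11) and Ifi44 (-0.63) in neutrophil-like cells, Bst2 in T cell-like cells (-0.34), Isg15 (-0.087), Ifi44 (-0.34), Iigp1 (-1.31) and Gbp7 (-0.31) in monocyte-like cells, Ifit2 (-1.14), Ifit3 (-0.65) and Usp18 (-0.18) in macrophage-like cells, and Ly6e (-0.033), Igtp (-0.66), Irgm1 (-0.54), Iigp1 (-1.66), Ifi47 (-0.49) and Gbp2 (-0.075) in endothelial-like cells. As a mean over cells Ifi27l2a in macrophage-like cells of the liver-labelled library was -0.30 and Igtp in B cell-like cells of the spleen-labelled library was -0.11. Without the top cells Ly6e in NK cell-like cells was 1.70.
The share of neutrophil-like cells with a type I UMI, thinned to 1000 UMIs and not thinned, was 63.2% and 95.9% in the vehicle and 50.5% and 99.5% at the high dose in the liver-labelled library, and 53.7% and 90.3%, and 53.5% and 98.7%, in the spleen-labelled library. Of the other values, for single genes and smaller classes, 3792 stayed within their counting interval, 348 moved beyond it and the 25 given above turned direction. A turn was called only where the main log2 ratio was at least 1.0 in size, so smaller ratios that changed sign are not among the 25. An example is the type I ratio of monocyte-like cells of the liver-labelled library, at 0.61 for the high dose and -0.27 for the low dose.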
